A study of Mus musculus with 12 samples.

Results

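The genes described here are the antigen presentation genes of the MHC in mouse intestine, taken by name from both expression tables of the series. They are 10 of 54532 genes, of which 6 belong to the class II arm (H2-Aa, H2-Ab1, H2-Eb1, H2-DMa, Cd74 and Ciita) and 4 to the class I arm (H2-K1, H2-D1, B2m and Tap1). The knockout lacks ieCtnnb1, an intestinal enhancer upstream of Ctnnb1, the gene for β-catenin; the deletion is germline and homozygous, so every cell type of the animal carries it. RNA was sequenced from small intestine crypts of untreated adult mice, 3 WT and 3 ieCtnnb1KO, and from colon tumors of adult mice, 3 APCmin/+ and 3 APCmin/+;ieCtnnb1KO. All tumor donors therefore carry the Min allele of Apc, and the tumor controls have the enhancer intact. Values are FPKM (fragments scaled to gene length and, by median-of-ratios factors, between the libraries of a tissue), in a separate table for each tissue, behind which lie 14457896 to 16074777 fragments per crypt library and 14648696 to 16156712 per tumor library.

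MHC class II molecules are pairs of an α and a β chain that show peptides from endocytosed proteins to CD4 T cells. They are built around the invariant chain Cd74, loaded with the help of H2-DM, and switched on by the transactivator Ciita, which interferon gamma induces. Class I molecules pair a heavy chain with β2-microglobulin and show peptides of cytosolic origin, pumped into the endoplasmic reticulum by the Tap transporter, to CD8 T cells. Dendritic cells, B cells and macrophages carry class II constitutively, and the epithelium of the small intestine carries it as well, while class I is found on nearly all nucleated cells.

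The target of the deletion was read first. Ctnnb1 was at 121, 134 and 123 FPKM in WT crypts and at 102, 104 and 105 FPKM in ieCtnnb1KO crypts. In tumors it was at 299, 363 and 358 FPKM with the enhancer and at 279, 248 and 250 FPKM without it. Every knockout library lay below every control library of its tissue, the direction the labels imply. Of all genes tested, 5.15% in crypts and 10.6% in tumors were lower in this way. The log2 fold change of Ctnnb1 was -0.28 ± 0.12 (SE) in crypts and -0.39 ± 0.13 in tumors, with limma adjusted p = 0.849 and 0.303.

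The labelled tissues were checked against marker lists, given as the sum of FPKM over each list. The 7 epithelial markers summed to between 3717 and 4900 FPKM in crypt libraries, and the 5 common leukocyte markers to between 44.1 and 59.2. The 7 crypt base markers summed to 14881 FPKM or more in each crypt library, led by the Paneth cell defensin Defa24. Enterocyte RNA of the villus type was present too, although the crypt isolation in the paper's methods includes a filter step against villi. The 7 villus enterocyte markers summed to 3125, 4856 and 9338 FPKM in WT and 6905, 5290 and 7981 FPKM in ieCtnnb1KO crypts, with Fabp2 the most abundant. The crypts were not sorted, and intraepithelial lymphocyte RNA was visible, with Gzma, a granzyme, at 220 to 281 FPKM. In tumors the 7 epithelial markers summed to between 3609 and 4974 FPKM, and the 10 macrophage markers, led by Lyz2, to between 410 and 818 FPKM. None of the markers in any of the 10 lists was at 0 in all 6 libraries of a tissue. WT crypt replicate 3 stood apart, with Defa24 at 32836 FPKM against 7359 to 10163 FPKM in the other 5 crypt libraries, and the lowest mean correlation with them over genes (Pearson r = 0.951 on log2 values, against 0.959 to 0.965).

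Promoters are shown for H2-Aa, H2-K1 and B2m because members of each class varied together between tumor libraries, as described further on. RefSeq promoters on GRCm38.p6 were found for 7 of the 10 members. Each line gives bases upstream of the RefSeq start site, 5′ to 3′ on the gene's strand, with exonic bases left off and matched motifs in capitals. H2-Aa lies at chr17:34287824-34288003 on the minus strand, H2-K1 at chr17:34000348-34000527 on the minus strand and B2m at chr2:122147507-122147685 on the plus strand.
H2-Aa: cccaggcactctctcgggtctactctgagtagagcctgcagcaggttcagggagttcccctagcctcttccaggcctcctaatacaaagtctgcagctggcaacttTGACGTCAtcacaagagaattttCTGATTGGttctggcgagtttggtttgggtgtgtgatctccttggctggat
H2-K1: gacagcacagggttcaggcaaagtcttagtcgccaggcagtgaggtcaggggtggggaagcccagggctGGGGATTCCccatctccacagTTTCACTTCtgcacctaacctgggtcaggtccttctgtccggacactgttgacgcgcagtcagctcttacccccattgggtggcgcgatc
B2m: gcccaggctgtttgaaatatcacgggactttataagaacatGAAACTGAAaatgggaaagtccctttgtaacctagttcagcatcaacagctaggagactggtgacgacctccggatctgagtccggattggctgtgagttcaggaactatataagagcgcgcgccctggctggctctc
The motifs were chosen after the promoters had been seen and were searched on both strands in the 250 bases before each start. Capitals in H2-Aa mark the X2 box (TGACGTCA, in 1.55% of 32851 promoters) and the Y box (CTGATTGG, in 3.83%), which belong to the conserved module that class II promoters share. The Y box letters were also present before H2-Eb1, H2-D1 and Tap1, and an X1 box (AGNNACNGA, in 14.7%) lay before H2-Eb1. Capitals in H2-K1 mark a kappa B motif (GGGGATTCC, in 0.213%) and an interferon response core (GAANNGAAA, in 6.31%), and H2-D1 held both as well. The capitals in B2m mark the other interferon response core searched (GAAANNGAA, in 7.13%). The GAS letters TTCNNNGAA, present in 7.02% of promoters, were in none of the 7. For H2-DMa the 2 RefSeq starts, chr17:34122832 and chr17:34125518, lie upstream of the span given in the tables, which begins at chr17:34135182. All matches are of letters only.

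The classical class II chains were abundant in crypts. H2-Aa, the α chain of I-A, was at 195, 285 and 292 FPKM in WT and at 295, 217 and 307 FPKM in ieCtnnb1KO crypts. H2-Ab1, its β chain, was at 247, 344 and 386 FPKM in WT and at 319, 259 and 319 FPKM in ieCtnnb1KO. H2-Eb1, the β chain of I-E, was at 264, 333 and 321 FPKM in WT and at 325, 277 and 311 FPKM in ieCtnnb1KO. The groups overlapped for all 3 chains, and WT replicate 1 was the lowest library for each. The α chain partner of H2-Eb1 is represented by the pseudogene row H2-Ea-ps, which was listed at 0 in 5 of the 6 crypt libraries and in all 6 tumor libraries; mice of the b haplotype, such as C57BL/6, make no I-E α chain.

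Differences of the 3 chains between genotypes in crypts were small beside their spread. The log2 fold change was 0.09 ± 0.22 for H2-Aa, -0.10 ± 0.21 for H2-Ab1 and -0.00176 ± 0.16 for H2-Eb1. Fold changes are on the log2(FPKM + 0.5) scale with the SE of limma, and adjusted p-values were 0.971, 0.965 and 0.9999. The signs of H2-Ab1 and H2-Eb1 turned when libraries were rescaled to the same total, and so did that of H2-D1 of class I. Under that rescaling the median over the whole crypt table went from 0.01 to 0.14, so the members moved with it. Scaling moved the other crypt values by over 1.5 times as well. Over equal totals, rescaling without the 50 highest genes, quantile normalization and voom, the log2 fold change lay between 0.02 and 0.24 for H2-Aa, between 0.16 and 0.37 for Cd74 and between -0.27 and -0.08 for Ciita. In class I it lay between 0.02 and 0.23 for H2-K1, between 0.05 and 0.26 for B2m and between 0.18 and 0.41 for Tap1. In bulk tissue, fewer cells that carry a transcript and less transcript per cell cannot be told apart.

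Cd74, which chaperones the chains and blocks their groove until loading, was among the most abundant transcripts of the crypt table, at rank 40 by mean FPKM. It was at 1050, 1297 and 1002 FPKM in WT and at 1402, 1234 and 1246 FPKM in ieCtnnb1KO crypts. The highest WT library lay within the knockout range, and the log2 fold change was 0.22 ± 0.20 (adjusted p = 0.909, limma). It was 0.33 without WT replicate 2 and 0.15 without WT replicate 3. Per length, Cd74 exceeded H2-Ab1 by 2.60-fold in WT replicate 3 and by between 3.78-fold and 4.76-fold in the other 5 crypt libraries, because that library combined the lowest Cd74 with the highest H2-Ab1.

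H2-DMa encodes the α chain of H2-DM, the catalyst that exchanges the Cd74 remnant for peptide. It was at 44.6, 47.1 and 38.1 FPKM in WT and at 59.6, 52.1 and 51.4 FPKM in ieCtnnb1KO crypts. Here alone among the 10 members, and in crypts but not in tumors, the groups did not overlap, with every knockout library above every WT library. The means were 43.3 ± 4.67 (SD, n = 3) and 54.4 ± 4.57 FPKM. Its log2 fold change of 0.33 had a 95% interval from 0.01 to 0.64. The limma adjusted p was 0.845, so it did not pass (0.0439 before adjustment). The exact two-sided permutation test gave 0.1, the smallest p that 3 libraries against 3 allow. The direction held under every scaling tried; without overlap, leaving out 1 library cannot turn it. The log2 fold change was 0.20 under quantile normalization, 0.27 without the 50 highest genes and 0.47 with equal library totals, and in none of these 3 did the unadjusted limma p stay under 0.05. It was also above 0.05 with no variance trend, with the replicate block and without each crypt library left out in turn, except WT replicate 2. In the main fit H2-DMa was 1 of 6 class II members higher at an unadjusted p under 0.05, and 1 of 6 without overlap, where 3.48% and 6.79% of the 14176 genes tested in crypts met those 2 criteria. In the other direction, 2.36% of genes were lower at an unadjusted p under 0.05 and 5.15% were lower without overlap, and no member was among them. The mitochondrial genome share of the libraries was 13.5, 19.0 and 15.2% in WT and 11.5, 10.7 and 14.9% in ieCtnnb1KO crypts, with overlap. Its part in the H2-DMa values was not tested.

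Ciita, the transactivator of the class II promoters, was the scarcest member. Its FPKM were 7.74, 6.81 and 5.89 in WT and 6.89, 5.40 and 5.18 in ieCtnnb1KO crypts, with overlapping groups and a log2 fold change of -0.21 ± 0.16 (adjusted p = 0.896, limma). It was -0.12 without WT replicate 1, -0.14 without knockout replicate 3 and -0.33 without knockout replicate 1. Dexi, whose span covers 25888 bases of the Ciita span on the opposite strand, had a log2 fold change of -0.26 in crypts and 0.31 in tumors; whether the counting used strand is not given in the sources used here. The ratio of Cd74 to Ciita was 136, 190 and 170 in WT and 203, 228 and 240 in ieCtnnb1KO crypts, without overlap. In tumors the same ratio overlapped, at 168 to 332 in controls and 241 to 296 in knockouts. It is 1 of 7 ratios between members that were computed, of which 2 in each tissue did not overlap between genotypes. The other in crypts was H2-Ab1 to H2-Aa, at 1.20 to 1.32 in WT and 1.04 to 1.19 in ieCtnnb1KO, and those in tumors were Cd74 to B2m (0.517 to 0.628 and 0.646 to 0.982) and B2m to H2-K1 (1.28 to 1.70 and 1.06 to 1.22). The ratios were chosen after the members' values were seen and were not tested. How often ratios of other genes did not overlap was not computed.

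**Figure D1:**
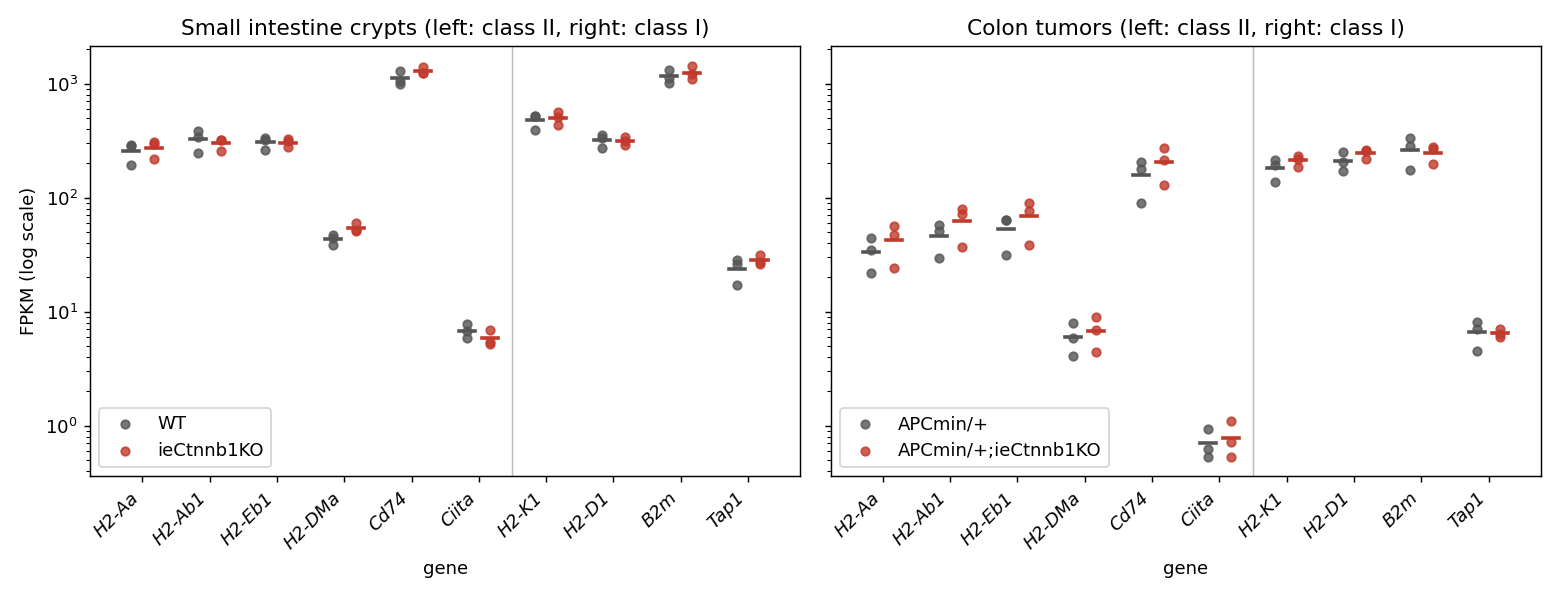
FPKM of the 10 members on a log axis in small intestine crypts and colon tumors, 1 point per library and a bar at each group mean, with class II left and class I right of the line. H2-DMa in crypts, at 38.1 to 47.1 FPKM in WT and 51.4 to 59.6 FPKM in ieCtnnb1KO, is the only member whose groups do not overlap.

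The class I chains were abundant in crypts as well. B2m, the light chain that all class I molecules share, was at 1015, 1328 and 1129 FPKM in WT and at 1210, 1090 and 1444 FPKM in ieCtnnb1KO crypts, at rank 41 by mean FPKM. The heavy chain H2-K1 was at 394, 522 and 515 FPKM in WT and at 507, 432 and 570 FPKM in ieCtnnb1KO. The heavy chain H2-D1 was at 271, 336 and 352 FPKM in WT and at 311, 287 and 340 FPKM in ieCtnnb1KO. Groups overlapped for each, and log2 fold changes were 0.11 ± 0.21, 0.08 ± 0.19 and -0.02 ± 0.17. H2-K1 and H2-D1 resemble each other and other class I genes of the H2 family in sequence. That likeness was not measured here, and the separate levels of H2-K1 and H2-D1 are uncertain. Tap1, a subunit of the peptide transporter, was at 26.3, 28.1 and 17.2 FPKM in WT and at 31.2, 26.0 and 27.2 FPKM in ieCtnnb1KO. Its log2 fold change of 0.26 ± 0.20 rested on WT replicate 3, the library that stood apart, and was 0.04 without it, while it was 0.39 without WT replicate 2.

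Ordered by WT level in crypts, B2m (1157 ± 158 FPKM, SD, n = 3) and Cd74 (1117 ± 159) came first and did not differ beyond their spread. H2-K1 (477 ± 72.0) followed. H2-Ab1 (325 ± 71.3), H2-D1 (320 ± 43.0), H2-Eb1 (306 ± 37.2) and H2-Aa (257 ± 54.1) lay within each other's spread. H2-DMa (43.3 ± 4.67), Tap1 (23.9 ± 5.87) and Ciita (6.81 ± 0.921) came last and stood apart from one another.

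Across genes, limma called 0 of 14176 genes in crypts (0% at an adjusted p under 0.05), with 494 higher and 335 lower in ieCtnnb1KO at an unadjusted p under 0.05, and 0 by voom on recovered fragments. The balance of that count depended on scaling, with 737 higher and 156 lower when rescaled to the same total and 284 higher and 509 lower when rescaled without the 50 highest genes. Of the class II members 3 were higher and 3 lower, with a median log2 fold change of 0.05, and of the class I members 3 were higher and 1 lower, with a median of 0.09. Over all genes tested in crypts, 52.8% were higher and the median was 0.01. With equal library totals the class II, class I and all-gene medians were 0.19, 0.24 and 0.14, and without the 50 highest genes -0.02, 0.03 and -0.04. Under quantile normalization they were -0.03, 0.12 and 0.01, so the sign of the class II median in crypts depended on scaling.

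In colon tumors, class II transcripts were lower than in crypts and varied more between libraries. Cd74 was at 177, 89.8 and 207 FPKM in APCmin/+ and at 212, 274 and 128 FPKM in APCmin/+;ieCtnnb1KO tumors. H2-Eb1 was at 63.8, 31.5 and 64.1 FPKM in controls and at 76.8, 90.6 and 38.5 FPKM in knockouts. H2-Ab1 was at 57.9, 29.7 and 50.7 FPKM in controls and at 71.7, 79.5 and 36.6 FPKM in knockouts. In all 3 genes, control replicate 2 was the lowest library, knockout replicate 3 the next lowest and knockout replicate 2 the highest. H2-Aa was at 34.38, 22.02 and 44.03 FPKM in controls and at 46.92, 56.09 and 23.99 FPKM in knockouts, in the same order at both ends. H2-DMa was at 7.90, 4.10 and 5.91 FPKM in controls and at 6.85, 8.89 and 4.42 FPKM in knockouts. Ciita was at 0.939, 0.534 and 0.624 FPKM in controls and at 0.717, 1.10 and 0.531 FPKM in knockouts, close to the filter of 0.5 and resting on 79 to 169 fragments per library.

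All 6 class II members had a higher mean log2 level in knockout tumors, and none passed the test. Their median log2 fold change was 0.33, against 0.01 over the 16743 genes tested in tumors, of which 51.3% were higher. That median depended on scaling, at 0.22 with equal library totals, where the median over all genes was -0.09, and at 0.19 under quantile normalization, where it was -0.01. H2-Ab1 had the largest difference, a log2 fold change of 0.41 ± 0.36, with an interval from -0.44 to 1.27 and a limma adjusted p = 0.597. Cd74 followed with 0.39 ± 0.39 (interval -0.54 to 1.32), and H2-Eb1 and H2-Aa had 0.35 ± 0.40 and 0.30 ± 0.37. H2-DMa and Ciita had 0.15 ± 0.30 and 0.09 ± 0.24. Under quantile normalization H2-Ab1 was at 0.27, Cd74 at 0.18, and H2-Eb1 and H2-Aa at 0.20 each. With equal library totals H2-DMa was at 0.05 and Ciita at 0.03. The size also rested on single libraries. Without control replicate 2 the log2 fold change of H2-Ab1 was 0.13, those of Cd74, H2-Eb1 and H2-Aa were 0.03, 0.01 and 0.03, and those of H2-DMa and Ciita -0.07 and -0.01. Without knockout replicate 3 the log2 fold changes of Cd74, H2-Eb1, H2-Aa and H2-Ab1 were 0.69, 0.72, 0.66 and 0.76, and without knockout replicate 2 they were 0.15, 0.11, 0.06 and 0.21.

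Tumor libraries also differed in sex, which the labels do not give. Xist, expressed from the inactive X chromosome, was at 114 FPKM in control replicate 3 and 61.4 FPKM in knockout replicate 3, and at 0.0623 FPKM or less in the other 4 tumor libraries, which expressed the Y-linked Ddx3y at 8.65 FPKM or more. All 6 crypt libraries expressed Ddx3y, at 8.32 FPKM or more. In a comparison chosen after seeing the data, within the 2 control and 2 knockout tumors with Y-linked expression, the log2 fold changes were 0.93 for Cd74, 0.89 for H2-Aa and H2-Eb1 and 0.85 for H2-Ab1, and 0 genes passed in limma. That set still holds control replicate 2, the lowest library, and knockout replicate 2, the highest. Between the libraries with Xist the order was opposite, with Cd74 at 207 FPKM in the control and 128 FPKM in the knockout and H2-Ab1 at 50.7 and 36.6 FPKM. With 1 library of each genotype that difference has no replicate check.

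Among the class I members of tumors, B2m, H2-D1 and H2-K1 were close to each other in level and Tap1 was far lower. B2m was at 283, 174 and 331 FPKM in APCmin/+ and at 267, 279 and 198 FPKM in APCmin/+;ieCtnnb1KO tumors. H2-D1 was at 251, 172 and 206 FPKM in controls and at 258, 263 and 219 FPKM in knockouts. H2-K1 was at 214, 136 and 194 FPKM in controls and at 218, 232 and 187 FPKM in knockouts. Control replicate 2 was again the lowest library for each, and the groups overlapped. Tap1 was at 8.18, 4.48 and 7.03 FPKM in controls and at 7.05, 6.42 and 6.01 FPKM in knockouts. The log2 fold changes were 0.25 ± 0.16 for H2-D1, 0.24 ± 0.19 for H2-K1, -0.05 ± 0.26 for B2m and 0.02 ± 0.21 for Tap1, with limma adjusted p = 0.501, 0.560, 0.951 and 0.973. The sign of Tap1 turned when libraries were rescaled to the same total, where its log2 fold change was -0.08 and the median over the tumor table went from 0.01 to -0.09, so Tap1 moved with the table. Without control replicate 2, H2-K1 was at 0.05, H2-D1 at 0.11, Tap1 at -0.21 and B2m at -0.32. Without control replicate 1, H2-K1 and H2-D1 were at 0.38 each. Under quantile normalization H2-K1 and H2-D1 were at 0.047 and 0.019 and B2m was at -0.25.

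No member passed in tumors, where limma called 0 of 16743 genes (0% at an adjusted p under 0.05) and voom on recovered fragments called 0. At an unadjusted p under 0.05, 1417 genes were higher (8.46%) and 1004 lower (6%) in knockout tumors, and 11.4% were higher and 10.6% lower without overlap; no member met any of these criteria. With equal library totals that split became 729 and 1791. Without the 50 highest genes the split was 727 and 1960, under quantile normalization 1116 and 1282, and with voom 1079 and 1525.

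**Figure D2:**
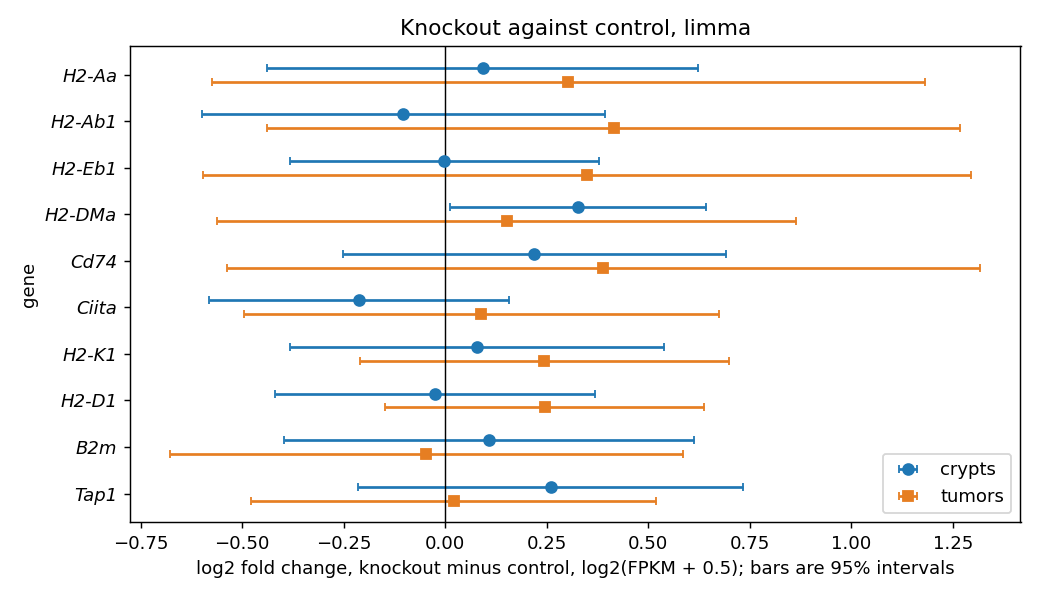
Log2 fold change of each member, knockout minus control, in crypts (circles) and tumors (squares), with 95% intervals from limma on 3 libraries a group. The intervals include 0 except for H2-DMa in crypts, from 0.01 to 0.64.

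Levels of the tissues come from tables scaled separately and from different organs, and were not tested. Control means in crypts exceeded those in APCmin/+ tumors for each member, by between 5.76-fold (H2-Eb1) and 9.75-fold (Ciita) in class II and by between 1.52-fold (H2-D1) and 4.41-fold (B2m) in class I. In APCmin/+ tumors the order was B2m (262 ± 80.4 FPKM), H2-D1 (210 ± 39.4), H2-K1 (182 ± 40.6) and Cd74 (158 ± 61.0), whose neighbours lay within each other's spread. H2-Eb1 (53.1 ± 18.7), H2-Ab1 (46.1 ± 14.6) and H2-Aa (33.5 ± 11.0) followed, also within each other's spread. Tap1 (6.56 ± 1.89) and H2-DMa (5.97 ± 1.90) did not differ beyond theirs, and Ciita (0.699 ± 0.213) was last.

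The knockout effect was also compared between tissues in 1 limma fit over all 12 libraries. The tumor effect minus the crypt effect was largest for H2-Ab1, at 0.52 ± 0.44, with a limma adjusted p = 0.779. H2-Eb1 was at 0.35 ± 0.45, Ciita at 0.30 ± 0.28, H2-D1 at 0.27 ± 0.23 and H2-Aa at 0.21 ± 0.46. H2-DMa, whose crypt groups did not overlap, was at -0.18 ± 0.34, so its effect was not shown to differ between tissues. Tap1 and B2m were at -0.24 ± 0.30 and -0.15 ± 0.34. Over 13370 genes 0 were called (0% at an adjusted p under 0.05), and 8.47% had an unadjusted p under 0.05, none of them a member.

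Members varied together in tumors more than in crypts. As a description over 6 libraries, the 15 pairs of class II members had a median Pearson r of 0.94 in tumors, from 0.72 for H2-Aa with Ciita to 0.99 for H2-Ab1 with H2-Eb1. In crypts the median was 0.07, with H2-Aa and H2-Eb1 at 0.94 and H2-Aa and Ciita at -0.36. The 6 class I pairs had a median of 0.80 in tumors and 0.50 in crypts, and the 24 pairs across the classes 0.80 and 0.45. The mean log2 level of class II members spanned 1.25 over tumor libraries and 0.32 over crypt libraries, and that of class I members 0.67 and 0.35. The points share libraries, and libraries of both genotypes.

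Macrophage and dendritic cell sums were low and high in the same tumor libraries as class II. So were the villus enterocyte and stroma sums, given further on. The B cell, T cell, plasma cell and common leukocyte sums shared at most 1 of those ends. The 10 macrophage markers summed to 621, 410 and 642 FPKM in APCmin/+ and to 604, 818 and 476 FPKM in APCmin/+;ieCtnnb1KO tumors, with Lyz2 the most abundant at 382, 247 and 439 FPKM and at 337, 479 and 253 FPKM. The 8 dendritic cell markers, led by the integrin Itgax, summed to 12.1, 7.04 and 10.1 FPKM in controls and to 12.4, 16.3 and 8.13 FPKM in knockouts. For both sums control replicate 2 was lowest, knockout replicate 3 next and knockout replicate 2 highest, as for Cd74, but that order depended on the most abundant gene. Without Lyz2 the other 9 macrophage markers summed to 239, 163 and 202 FPKM in controls and to 267, 339 and 223 FPKM in knockouts, with control replicate 3 next lowest. Without Itgax the other 7 dendritic cell markers summed to 5.09, 3.65 and 3.77 FPKM in controls and to 6.87, 6.42 and 4.34 FPKM in knockouts, with knockout replicate 1 highest. The 8 B cell markers, led by Cd79a, summed to 7.43, 2.32 and 4.08 FPKM in controls and to 10.2, 6.70 and 4.78 FPKM in knockouts. The 5 common leukocyte markers, led by Coro1a, summed to 76.1, 50.7 and 54.3 FPKM and to 70.4, 77.8 and 45.5 FPKM. Their part in the class II values was not tested.

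The remaining lists gave a mixed picture. The 9 T cell markers, led by Trac, stayed between 11.7 and 14.3 FPKM in the 6 tumor libraries, but this narrow range rested on Trac. Without Trac the other 8 summed to 4.90, 4.85 and 5.09 FPKM in controls and to 6.10, 7.09 and 3.58 FPKM in knockouts. Knockout replicate 2 was then highest, as for class II, and knockout replicate 3 lowest. The 5 plasma cell markers, led by Sdc1, summed to 531, 302 and 344 FPKM in control and to 517, 424 and 429 FPKM in knockout tumors. Epithelial markers summed to 4089, 4160 and 3609 FPKM in controls and to 4826, 4700 and 4974 FPKM in knockouts, led by Krt8, without overlap. The 7 stroma markers, led by Vim, summed to 582, 421 and 496 FPKM and to 592, 672 and 633 FPKM, also without overlap, and the 7 villus enterocyte markers, led by Krt20, to 103, 52.7 and 57.5 FPKM and to 120, 137 and 125 FPKM. The stroma and villus enterocyte sums were, like class II, lowest in control replicate 2 and highest in knockout replicate 2. Leaving out the most abundant gene moved the low end for stroma and ended the group separation for villus enterocytes. Without Vim the other 6 stroma markers summed to 419, 282 and 260 FPKM in controls and to 431, 517 and 442 FPKM in knockouts. Control replicate 3 was then lowest, knockout replicate 2 was still highest, and there was still no overlap. Without Krt20 the other 6 villus enterocyte markers summed to 9.67, 4.95 and 8.37 FPKM in controls and to 8.25, 12.7 and 9.20 FPKM in knockouts. The lowest and highest libraries stayed the same there, but the groups overlapped. The 7 crypt base markers, led by Lyz1, ranged from 1261 to 3322 FPKM.

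In crypts, immune markers did not share the order of class II. The common leukocyte markers summed to 52.5, 59.2 and 58.0 FPKM in WT and to 46.3, 54.7 and 44.1 FPKM in ieCtnnb1KO. The macrophage markers summed to 26.0, 22.7 and 33.1 FPKM and to 19.7, 27.2 and 10.6 FPKM, and the dendritic cell markers to 2.96, 3.17 and 3.59 FPKM and to 2.56, 2.33 and 2.81 FPKM. B cell markers, led by Cd79b, ranged from 24.9 to 35.7 FPKM, plasma cell markers, led by Xbp1, from 108 to 143 FPKM, T cell markers from 336 to 444 FPKM and stroma markers from 6.77 to 11.6 FPKM. No summed immune list had all knockout crypt libraries above WT, as H2-DMa had, and the dendritic cell list was lower without overlap. Without their most abundant gene, the dendritic cell, common leukocyte, plasma cell, stroma and crypt base lists were lower in knockout crypts without overlap. The other lists still overlapped. How often sums of other genes did not overlap was not computed for either tissue. Among the 7 crypt base markers, 3 were higher and 4 lower. Lyz1 and Mmp7 were each lower without overlap, where 5.15% of all genes tested in crypts were. The part of these markers in the H2-DMa values was not tested. Villus enterocyte markers were lowest in WT replicate 1, the library with the lowest class II mean, but highest in WT replicate 3, while class II was highest in knockout replicate 1 and next in WT replicate 2, where the villus sum was second lowest; the part of enterocyte RNA was not tested.

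**Figure D3:**
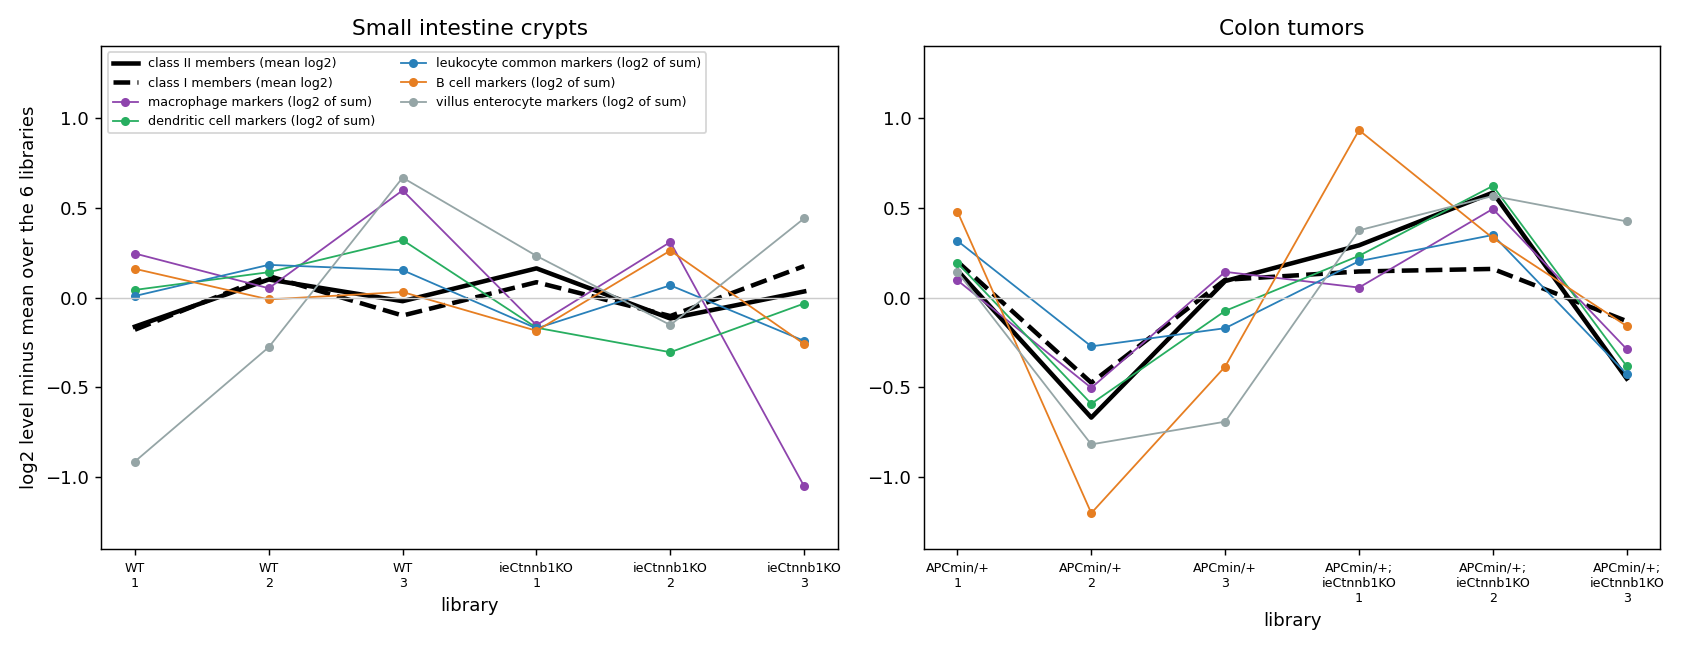
Mean log2 level of class II and class I members, and log2 of the summed FPKM of 5 marker lists, for each library as the difference from the mean over the 6 libraries of the tissue. In tumors class II, macrophage, dendritic cell and villus enterocyte lines are lowest in APCmin/+ replicate 2 and highest in APCmin/+;ieCtnnb1KO replicate 2; in crypts class II spans 0.32.

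Beyond the members, the other class II pathway genes gave few differences. Of 18 names 15 had a row and 11 were tested in crypts, 5 higher and 6 lower, with a median log2 fold change of -0.05. Ifi30, the thiol reductase that unfolds antigens in lysosomes, was at 118, 92.3 and 112 FPKM in WT and at 141, 144 and 126 FPKM in ieCtnnb1KO crypts. Rfxank, a subunit of the complex that binds class II promoters, was at 3.13, 3.48 and 3.25 FPKM in WT and at 4.10, 3.72 and 4.13 FPKM in ieCtnnb1KO. In both genes the knockout libraries lay above WT without overlap, and Ifi30 was the 1 gene of the list with an unadjusted p under 0.05. That makes 2 of 11 higher without overlap and 1 of 11 higher at that p, where 6.79% and 3.48% of all genes tested in crypts were. Their log2 fold changes were 0.35 ± 0.15 and 0.24 ± 0.12, with limma adjusted p = 0.845 and 0.860. H2-Ob, whose product restrains H2-DM, was at -0.35 ± 0.18, Ctsl at -0.33 ± 0.28 and H2-Eb2 at -0.18 ± 0.21, all with overlap.

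In tumors 12 of the other class II pathway genes were tested, 9 higher and 3 lower, with a median log2 fold change of 0.14. Ifi30 was at 50.6, 41.9 and 42.8 FPKM in control and at 60.2, 59.9 and 53.1 FPKM in knockout tumors, again without overlap (log2 fold change 0.36 ± 0.11). Rfxap, another subunit of the promoter complex, was at 8.93, 8.35 and 6.92 FPKM in controls and at 11.2, 9.65 and 11.4 FPKM in knockouts. Rfx5, its DNA-binding subunit, went the other way, with 6.17, 6.06 and 6.71 FPKM in controls and 5.17, 5.95 and 4.95 FPKM in knockouts. Ifi30, Rfxap and the lysosomal protease Ctsl were the 3 genes of the list that reached an unadjusted p under 0.05, and the same 3 were higher without overlap, while Rfx5 was the 1 lower without overlap. Over all genes tested in tumors 8.46% were higher at that p, and 11.4% were higher and 10.6% lower without overlap. The log2 fold changes were 0.39 ± 0.12 for Rfxap, 0.23 ± 0.09 for Ctsl and -0.22 ± 0.11 for Rfx5, and limma adjusted p-values in the list were 0.288 or more. H2-DMb1, the β chain that pairs with H2-DMa, was at 0.65 ± 0.30 with overlapping groups.

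Among the other class I pathway genes, 25 of 26 were tested in each tissue. In crypts 16 were higher and 9 lower, with a median log2 fold change of 0.11. Without overlap 4 were higher and 3 lower, where 6.79% and 5.15% of all genes tested in crypts were. Psmb9, a catalytic subunit of the immunoproteasome, was at 26.6, 22.9 and 19.8 FPKM in WT and at 29.6, 29.0 and 27.6 FPKM in ieCtnnb1KO. Psme1, a subunit of the proteasome activator, was at 96.0, 95.7 and 75.6 FPKM in WT and at 118, 113 and 101 FPKM in ieCtnnb1KO. Both were higher without overlap, with log2 fold changes of 0.32 ± 0.14 and 0.32 ± 0.15; Psmb9 and Tap1 lie head to head, and their spans share 212 bases. H2-Q10 was at 0.40 ± 0.18, and the class I transactivator Nlrc5 at -0.31 ± 0.16 with overlap. H2-T24, at 3.02, 2.67 and 3.22 FPKM in WT and 1.94, 1.72 and 2.54 FPKM in ieCtnnb1KO, was the 1 gene of the list with an unadjusted p under 0.05 (limma adjusted p = 0.822), 1 of 25, where 2.36% of all genes were lower at that p and 3.48% higher. The H2-Q and H2-T genes belong to a family of related sequences. Their likeness was not measured here, and these values are uncertain.

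In tumors the list had 18 higher and 7 lower genes, with a median log2 fold change of 0.12. Without overlap 4 were higher and 0 lower, where 11.4% and 10.6% of all genes tested in tumors were. Calr, a chaperone of the loading complex in the endoplasmic reticulum, was at 217, 209 and 191 FPKM in control and at 275, 271 and 343 FPKM in knockout tumors. Its log2 fold change of 0.52 ± 0.13 had the smallest p of the list, 0.00653 before and 0.269 after adjustment in limma, and it was the 1 gene of 25 with an unadjusted p under 0.05, where 8.46% of all genes were higher at that p and 6% lower. Psmb10 at 0.33 ± 0.15, Pdia3 at 0.22 ± 0.11 and Canx at 0.18 ± 0.09 were also higher without overlap, and H2-T23 was at 0.49 ± 0.28 with overlap. Calr, Canx and Pdia3 fold many glycoproteins besides class I.

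Of the 13 interferon gamma signaling genes, 12 were tested in each tissue, and Ifng itself was below the filter in crypts and listed at 0 in all 6 tumor libraries. In crypts 6 were higher and 6 lower, with a median log2 fold change of -0.02. The chemokine Cxcl9 was at 1.35, 0.976 and 0.783 FPKM in WT and at 0.631, 0.475 and 0.519 FPKM in ieCtnnb1KO, lower without overlap (log2 fold change -0.55 ± 0.22, adjusted p = 0.844, limma). The receptor chain Ifngr2 was at 26.4, 30.3 and 30.1 FPKM in WT and at 33.2, 32.3 and 39.0 FPKM in ieCtnnb1KO, higher without overlap. They were the 1 lower and the 1 higher of 12 without overlap, where 5.15% and 6.79% of all genes were. Cxcl9 was also the 1 gene with an unadjusted p under 0.05, where 2.36% of all genes were lower at that p and 3.48% higher. Socs1 and Cd274 had log2 fold changes of -0.38 ± 0.25 and -0.26 ± 0.26 in crypts.

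In tumors 4 interferon gamma signaling genes were higher and 8 lower, with a median log2 fold change of -0.04, and 0 had groups that did not overlap, where 11.4% of all genes tested in tumors were higher and 10.6% lower without overlap. Cxcl10 was at 2.19, 0.942 and 2.52 FPKM in control and at 1.02, 1.05 and 0.911 FPKM in knockout tumors, and Cxcl9 at 3.09, 0.965 and 5.81 FPKM and at 2.12, 1.28 and 0.914 FPKM. Control replicate 2 was low for both chemokines, as it was for the class II chains, but knockout replicate 2, highest for class II, was not high for either. Other genes of the list varied. Jak1, and Irf8 by fragments, were lowest in control replicate 2 and highest in knockout replicate 2, as class II was. Socs1 was lowest in knockout replicate 2. The part of the list in the class II values was not tested. The log2 fold changes were -0.61 ± 0.29 for Cxcl10, -0.78 ± 0.53 for Cxcl9, 0.33 ± 0.18 for Ifngr1, 0.14 ± 0.09 for Jak1 and -0.19 ± 0.18 for Socs1.

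**Figure D4:**
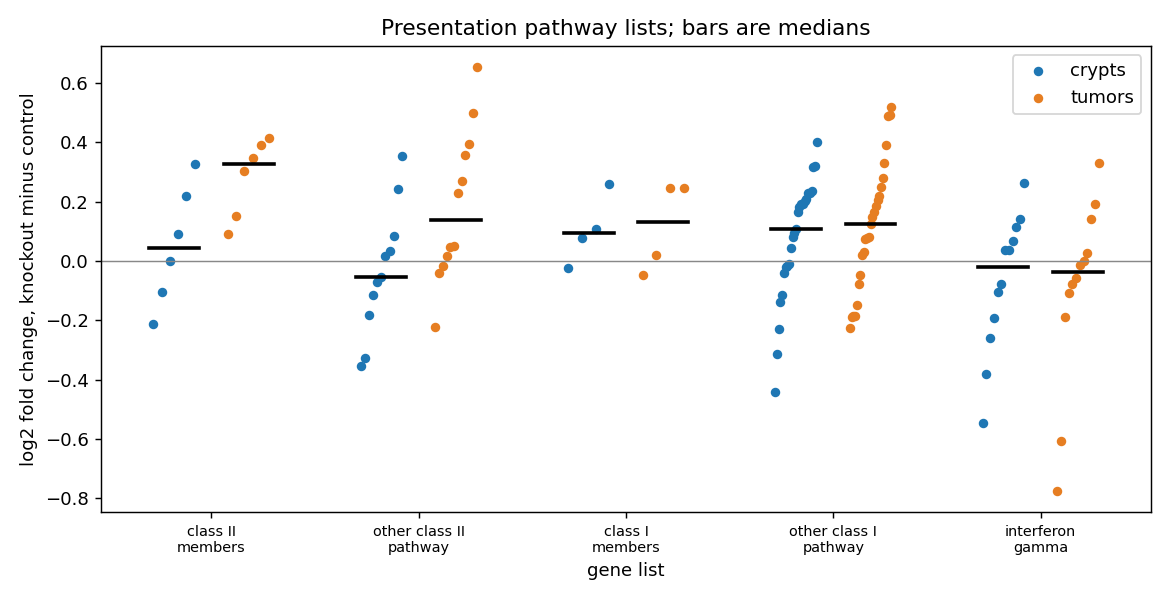
Log2 fold change, knockout minus control, of each tested gene of 5 lists in crypts and tumors, with a bar at each median. Medians for class II members are 0.05 in crypts and 0.33 in tumors, and for interferon gamma signaling -0.02 and -0.04.

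Genes with a pattern most like each class were sought among 11554 genes with a mean of at least 1 FPKM in both tables, by the lower of the Pearson correlations with the class mean over 6 crypt and over 6 tumor libraries. For class II the first was H2-DMb1, with r of 0.96 in crypts and 0.92 in tumors. Ly75, an endocytic receptor of dendritic cells, had 0.87 and 0.91, and Cytip, a cytohesin partner of leukocytes, 0.90 and 0.87. Ces1d (0.85 and 0.89) and 1110032A03Rik (0.94 and 0.84) completed the 5. For class I the 5 were Akr1e1 (0.89 and 0.89), Cdk18 (0.88 and 0.86), Plek (0.86 and 0.87), 9130023H24Rik (0.97 and 0.85) and Ap1s3 (0.82 and 0.81). None of these 10 genes had an unadjusted limma p under 0.05 in either tissue. Over all genes 3.48% were higher and 2.36% lower at that p in crypts, and 8.46% and 6% in tumors. The genes were picked for following class means whose genotype groups overlapped, so this count is no result about them. Values of r picked as the highest of 11554 over so few libraries are high by selection.

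The H2 family as a whole had 45 rows with names that start with H2-. In crypts 28 were tested, 14 higher and 14 lower, with a median log2 fold change of 0.01. At an unadjusted p under 0.05 crypts had 2 higher and 2 lower, where 3.48% and 2.36% of all genes were, and without overlap 2 higher and 3 lower, where 6.79% and 5.15% of all genes were. In tumors 24 were tested, 16 higher and 8 lower, with a median of 0.20. At that p tumors had 1 higher and 0 lower, where 8.46% and 6% of all genes were, and without overlap 1 higher and 0 lower, where 11.4% and 10.6% of all genes were.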

How the data were processed

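RNA of 12 libraries was sequenced, 3 per group. According to the paper's methods and the submitters' processing notes, the authors trimmed reads, aligned them to mm10 with HISAT2, counted genes with featureCounts and used DESeq2; Cufflinks 2.2.1 is also named. The authors deposited FPKM, in 1 table per tissue. How FPKM were computed, the annotation and the use of strand are not given in the sources used here. From the values, FPKM times gene length came in whole fragments (within 0.05 for at least 99.99% of non-zero values), and each library's FPKM denominator was its median-of-ratios size factor times the geometric mean of the library totals, 15452421 fragments in crypts and 15815558 in tumors.

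Groups came from sample titles. The main test was limma 3.58.1 (R 4.3.3) with a variance trend on log2(FPKM + 0.5), on genes averaging 0.5 FPKM or more, with Benjamini-Hochberg adjustment over all of them and a threshold of 0.05, without covariates. All 10 members passed this filter in both tissues. The scripts were tested on simulated data. Alternatives changed the pseudocount, filter, scaling, variance model or block, used voom, or left out a library; 1, added after seeing the data, kept only tumors with Y-linked expression. Limma p-values set the difference between groups against the spread between these libraries, with each gene's variance drawn toward a trend over all genes. From each pathway list, up to 5 genes per tissue with the smallest limma p were named; 1 that the rule takes is not reported here. The members and lists were chosen with earlier results of these data known. Overlapping spans come from GENCODE M21, in which 4 of the 10 members have the start and end of the tables, and are given only where the tables' own spans overlap as well; promoters come from RefSeq.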

Additional observations from a re-analysis of the deposited data

How the results depend on the processing

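No member passed an adjusted p of 0.05 in limma in either tissue under any setting tried. Median-of-ratios scaling repeats the values as analysed, because the deposited FPKM already carry those factors, and so adds no evidence of stability. Ciita in tumors fell below a filter of 1 FPKM and has no value there. With 3 libraries a group, and 79 fragments in the thinnest library for Ciita in tumors, small differences were not detectable. Causes of the changes listed here were not tested.

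Genes called in crypts were 0 under the other settings and 0 to 3 when 1 library was left out; the 3, Pgc, Gkn1 and Gkn2, came without WT replicate 3 and are named after their values were seen. Genes with an unadjusted p under 0.05 in crypts were 829, rose to 1349 with no filter, where more genes are tested, and ranged from 458 (without knockout replicate 1) to 1341 (without WT replicate 1). In tumors 0 genes were called, 1 (Mir3473e) with no variance trend and 0 without any 1 library; genes with an unadjusted p under 0.05 were 2421 and 3020 with no filter, and with 1 library left out ranged from 1396 (without control replicate 2) to 2752 (without control replicate 1). Among tumors with Y-linked expression only, a comparison of fewer libraries added after seeing the data, 0 were called and 1218 had an unadjusted p under 0.05, and B2m was at 0.30, reversed in sign. For the difference between tissues 0 were called, and 1 (Trbj1-6) with a pseudocount of 0.1.

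Rescaled to the same total, crypt values were 0.045 for H2-Ab1, 0.15 for H2-Eb1 and 0.12 for H2-D1, and Tap1 in tumors was -0.082. Rescaled without the 50 highest genes, Tap1 in tumors was -0.083. With voom on recovered fragments, H2-Eb1 and H2-D1 in crypts were 0.023 and 0.00112, and Tap1 in tumors -0.016. Leaving out 1 library at a time, crypt values ranged from -0.10 to 0.25 for H2-Aa, -0.29 to 0.032 for H2-Ab1, -0.11 to 0.065 for H2-Eb1, -0.053 to 0.18 for H2-K1, -0.14 to 0.0501 for H2-D1 and -0.00257 to 0.21 for B2m. Tumor values ranged from -0.073 to 0.40 for H2-DMa, -0.084 to 0.24 for Ciita, -0.32 to 0.15 for B2m and -0.21 to 0.19 for Tap1. In tumors the unadjusted limma p fell under 0.05 for H2-Ab1 without knockout replicate 3 (0.0427) and for H2-D1 without control replicate 1 (0.0488). It did so for H2-Aa among tumors with Y-linked expression (0.0192), a set chosen after seeing the data. Changes of filter, variance model or block, and median-of-ratios scaling, leave a member's log2 fold change as it is and cannot turn its sign. A change of pseudocount moved Ciita in tumors from 0.089 to 0.13 (0.1) and 0.065 (1), and other members by little, so their kept signs there say little. Under the 2 rescalings, quantile normalization and voom, 35 of 40 values in crypts and 37 of 40 in tumors kept their sign.

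With the replicate number as a block, 0 genes were called in either tissue, and 732 in crypts and 1882 in tumors had an unadjusted p under 0.05. Libraries of the same number did not deviate together: the correlations of their deviations were -0.05, -0.12 and 0.04 in crypts and 0.05, -0.09 and 0.05 in tumors, so the numbers were not taken to pair the animals.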
